A study of Mus musculus with 12 samples.

Results

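The 10 genes described here encode the core machinery that makes and uses small silencing RNAs: Drosha, Dgcr8, Xpo5, Dicer1, Tarbp2, Prkra, Ago1, Ago2, Ago3 and Ago4. They were chosen by name, as a known pathway, but with earlier results of these data known. All 10 were found among the 20718 genes of the table. They were followed in RNA of mouse testis, with 4 groups of 3 libraries each, 12 libraries in all. The labels give the strain as IRC mouse, which the methods of the study spell ICR, and name no mutant allele.

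All 4 groups were injected with lentivirus into the testes at 4 weeks of age, and the males were mated for 4 days at 9 weeks and kept for another 4 days before testes were collected. In F0_5251KD the virus, built on the LV3 backbone, delivered 3 mixed short hairpin RNAs, called shRNAs below, that target the long non-coding RNA lncRNA5251. In F0_3NC the same backbone carried a negative control hairpin. In F0_5251OV the virus, built on the LV5 backbone, carried full-length lncRNA5251 for overexpression, and F0_5NC received the empty LV5 vector. No group of uninjected testes was analysed here, so every level given is that of an injected testis. The prefix F0_ marks the injected generation. The sources used here name no promoter or cell type that limits expression of the virus, and the fraction of cells that took it up was not analysed here. Whether the replicates of a group are separate animals is not stated by the labels, and the p-values measure the spread between libraries, which may be technical.

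MicroRNAs are cut out of long transcripts in the nucleus by the Microprocessor, in which the ribonuclease DROSHA is held to the hairpin by the double-stranded RNA-binding protein DGCR8. Exportin 5, the product of Xpo5, carries the hairpin precursor to the cytoplasm, where the ribonuclease DICER1, with its partners TARBP2 and PACT (the product of Prkra), cuts it into a short duplex that is loaded into an Argonaute protein. Of the 4 mammalian Argonautes, AGO2 is known for cutting a fully matched target. A short hairpin RNA made from a viral vector enters the same pathway at the export step. In the testis germ cells also make small RNAs bound by PIWI proteins, and these do not need DICER1.

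The hairpins that the LV3 vectors delivered in F0_5251KD and F0_3NC are shown first, since such hairpins share this pathway from the export step on. Their processing was not measured here. Each line gives the stem sequence listed by the study as DNA, 5′ to 3′, and capitals mark the longest run that it shares with any transcript of the 10 genes.
Sh3NC: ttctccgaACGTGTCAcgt
shlncRNA5251 KD #1: gctgggaCTTAATGTCCTtct
ShlncRNA5251 KD #2: GCATGGGCAATtcaaacaaat
ShlncRNA5251 KD #3: gCTTATTATGCATcgtaaacc
The longest shared runs were 8 bases for the control (Drosha), and 11 (Dgcr8), 11 (Ago3, in antisense orientation) and 12 bases (Dicer1) for the 3 knockdown hairpins. Thus none of the 4 stems matched a transcript of these genes over its whole length, among 58 annotated transcripts searched. The run and gene shown for each stem are the first found, and runs of equal length elsewhere in these genes were not recorded. Across all 141767 annotated transcripts (GENCODE M21, GRCm38), the control stem had no full match, and each of the 3 knockdown stems had a full match in 1 gene, Purb, which encodes a purine-rich element-binding protein (chr11:6467599-6475917, minus strand). The matches lie in the sense orientation in its 3′ untranslated region, at chr11:6468416-6468436 for stem #1, chr11:6467969-6467989 for stem #2 and chr11:6468248-6468268 for stem #3.

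LncRNA5251 itself was not analysed here, so its knockdown and overexpression were not checked here. The study tested the efficiency of its shRNAs by qPCR in a transfected cell line. Purb, the only annotated gene that holds the 3 target sites, was read here. Its counts are not a measure of lncRNA5251, so they cannot tell whether the knockdown or overexpression worked. In F0_5251KD the CPM of Purb (CPM is the count scaled to a common library total) was 79.6, 72.8 and 72.2, and in F0_3NC it was 76.3, 92.3 and 73.8. The groups overlapped, and the log2 fold change of Purb was -0.11 (SE 0.093, 95% interval -0.31 to 0.09, edgeR adjusted p = 0.897). In F0_5251OV against F0_5NC the log2 fold change of Purb was 0.04 (SE 0.093, edgeR adjusted p = 0.907).

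Several microRNAs are annotated inside these genes, which makes them hosts of substrates of their own pathway. On GRCm38, the gene of Dgcr8 (gene ID 94223, chr16:18253948-18289246, minus strand) holds the miR-1306 hairpin within its coding sequence, in 2 of 2 coding transcripts, and the miR-3618 hairpin within an untranslated part of an exon. These hairpins are at chr16:18284239-18284317 and chr16:18284550-18284637. The gene of Xpo5 (gene ID 72322, chr17:46202782-46243598, plus strand) holds the miR-693 hairpin within an intron, at chr17:46231531-46231619. The mature sequences (RefSeq, GRCm38.p6) are shown with the seed, bases 2 to 8, in capitals.
mmu-miR-1306-3p: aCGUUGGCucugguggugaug
mmu-miR-1306-5p: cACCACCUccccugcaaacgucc
mmu-miR-3618-3p: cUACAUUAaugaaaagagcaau
mmu-miR-3618-5p: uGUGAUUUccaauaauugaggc
mmu-miR-693-5p: cAGCCACAuccgaaaguuuuc
mmu-miR-693-3p: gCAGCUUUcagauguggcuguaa
No 2 of these 6 seeds were the same. The libraries were made from messenger RNA, so the microRNAs themselves were not measured and the values below are those of the host genes. The estimated count of Dgcr8 was not whole in 12 of 12 libraries, as arises when reads that match more than 1 feature are shared out, and its level is uncertain to that extent.

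The other genes lie as follows on the same build. Drosha (gene ID 14000) is at chr15:12824815-12935291 on the plus strand, Dicer1 (gene ID 192119) at chr12:104687742-104751952 on the minus strand, Tarbp2 (gene ID 21357) at chr15:102518192-102523676 on the plus strand and Prkra (gene ID 23992) at chr2:76629898-76648015 on the minus strand. Ago2 (gene ID 239528) stands alone at chr15:73095844-73184935 on the minus strand. The other three Argonaute genes form a cluster on the minus strand of chromosome 4 that spans 201769 bp, with Ago3 (gene ID 214150) at chr4:126331704-126429556, Ago1 (gene ID 236511) at chr4:126435012-126468583 and Ago4 (gene ID 76850) at chr4:126489541-126533472. The gaps between them are 5455 bp and 20957 bp. The Argonautes are close relatives in sequence, and reads from shared stretches may have been split between them. Their estimated counts were whole, apart from Ago2 in 2 libraries. The library protocol names nothing that keeps the strand, and an antisense transcript would be counted with the gene.

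The depth was nearly equal, with 15431383 to 16355720 estimated counts per library, a ratio of 1.06. All 4 germ cell marker lists were present in every group and no listed marker gene found in the table was at 0 in all libraries. The elongated spermatid list summed to between 14021 and 19199 CPM and the spermatocyte list to between 820.6 and 1209 CPM. The largest shifts of a list between groups were those of the immediate early genes, with sums of 350.2 to 426.6 CPM in F0_5251KD and 190.3 to 207.7 CPM in F0_3NC, against 83.5 to 94.5 CPM for F0_5NC and 64.7 to 94.1 CPM for F0_5251OV, and of the epididymis list, with at most 7.4 CPM in any LV3 library and 2.33 to 123.8 in the LV5 libraries. Smaller shifts without overlap were found in other lists. In F0_5251KD against F0_3NC the endothelial list was higher (24.6 to 26.6 against 21.0 to 21.2 CPM) and the spermatocyte list lower (820.6 to 910.0 against 922.9 to 1209 CPM). In F0_5251OV against F0_5NC, 3 somatic lists were lower, namely Sertoli (711.7 to 888.5 against 914.9 to 1355 CPM), peritubular smooth muscle (61.7 to 73.1 against 83.5 to 100.2 CPM) and endothelium (19.8 to 21.5 against 22.4 to 27.9 CPM). F0_3NC was below F0_5NC in the endothelial list and above it in the spermatocyte list (832.0 to 919.4 CPM in F0_5NC). The part of these shifts in the levels below was not tested. Whole tissue was sequenced, so fewer cells of a type and less RNA per cell cannot be told apart.

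All 10 genes were detected in all 12 libraries. A cofactor of Dicer was the most abundant of these transcripts, the nuclear and export genes were in the middle, and Dicer1 and 3 of the 4 Argonautes were among the lowest. FPKM is fragments scaled to transcript length and library total, which allows levels of different genes to be compared as far as the lengths hold. In FPKM, Tarbp2 was highest at 80.0 ± 8.46 (SD, n = 12) and Ago1 lowest at 1.47 ± 0.151. Between them came Xpo5 at 19.9 ± 0.675, Prkra at 14.3 ± 2.18, Drosha at 10.6 ± 0.488, Dgcr8 at 9.54 ± 0.648, Ago4 at 5.08 ± 0.469, Dicer1 at 2.91 ± 0.305, Ago2 at 2.15 ± 0.205 and Ago3 at 1.51 ± 0.196.

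**Figure D1:**
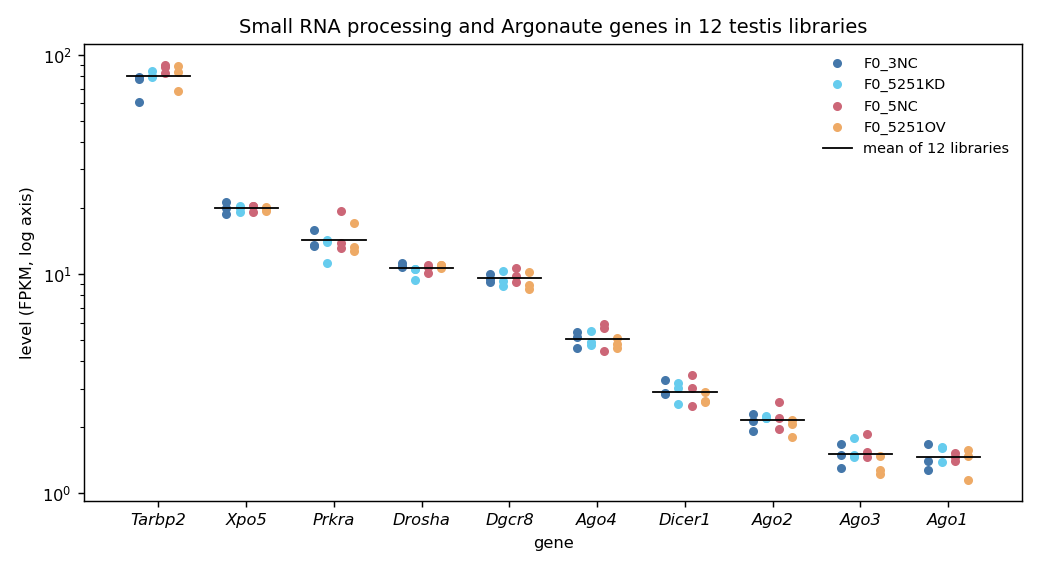
FPKM of each gene (log axis) in each of the 12 libraries, coloured by group, with a line at the mean of the 12; genes are in order of their mean. Tarbp2 stands apart at the top with a mean of 80.0, Ago3 and Ago1 share the bottom at 1.51 and 1.47, and the 4 groups lie on top of each other for nearly every gene.

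The order of these levels was the same in almost every library. For 8 of the 9 neighbouring pairs, the higher gene was above the lower in 12 of 12 libraries. The exception was the last pair, Ago3 and Ago1, which do not differ beyond their spread: Ago3 was the higher in 6 of 12 libraries, with a ratio between 0.777 and 1.33. The ranges over libraries were fully apart for only 3 pairs, namely Tarbp2 above Xpo5 (ratio 2.85 to 4.45), Dgcr8 above Ago4 (1.67 to 2.07) and Ago4 above Dicer1 (1.61 to 1.94). For Xpo5 over Prkra the ratio within a library came down to 1.05, and for Drosha over Dgcr8 to 1.02.

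For the Microprocessor, the subunits were present at similar transcript levels, with a Drosha to Dgcr8 ratio of 1.12 ± 0.075 (SD, n = 12, range 1.02 to 1.25). At the Dicer step the levels were far apart. Tarbp2 was 27.9 ± 4.72 times as abundant as Dicer1 in FPKM (range 18.4 to 35.8) and 5.71 ± 1.07 times as abundant as Prkra, the other partner (range 3.81 to 7.07). Dicer1 was at 0.274 ± 0.031 of Drosha. These are ratios of RNA levels, and the proteins were not measured here. The ratios also rest on the lengths behind the FPKM, 1483 to 1536 bases for Tarbp2 and 9060 to 9723 bases for Dicer1. Without length scaling, the mean CPM was 121.68 for Tarbp2 and 27.32 for Dicer1. Whether these lengths hold for the transcripts of the testis was not tested.

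Among the Argonautes, Ago4 had the highest level in every library. It made up 49.7% ± 2.70 (SD, n = 12) of the summed Argonaute FPKM, against 21.1% ± 1.60 for Ago2, 14.8% ± 1.21 for Ago3 and 14.4% ± 1.43 for Ago1. The share of Ago4 lay between 45.9% and 54.2%, and that of Ago2 between 18.0% and 23.8%. In FPKM, Ago4 was thus 2.38 ± 0.300 times as abundant as Ago2 (range 2.004 to 3.005). Mean CPM, which is not scaled to length, was 27.96 for Ago4, 16.98 for Ago2, 15.15 for Ago3 and 10.41 for Ago1. The summed FPKM of the 4 Argonautes was 10.1 ± 0.693 in F0_3NC and 10.4 ± 0.191 in F0_5251KD, and for the LV5 vectors 10.7 ± 0.981 in F0_5NC and 9.57 ± 0.618 in F0_5251OV (SD, n = 3 each), and the ranges of these groups overlapped.

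**Figure D2:**
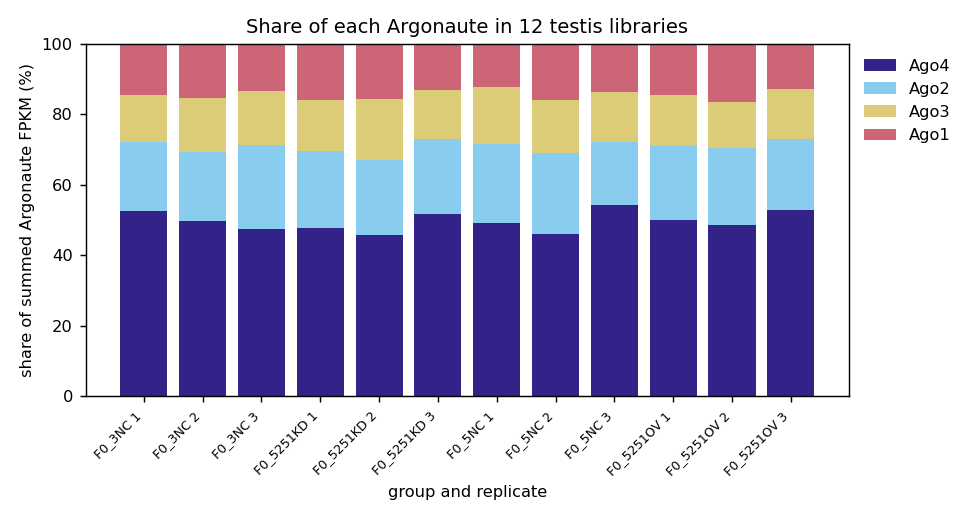
Share of the summed FPKM of the 4 Argonaute genes (%, bars start at 0) taken by each gene in each of the 12 libraries, with group and replicate below. Ago4 takes between 45.9% and 54.2% in every library, whichever virus was injected.

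For scale, the PIWI clade of the same protein family was measured too, as a whole list of 3 genes. Piwil1, which encodes the PIWI protein of spermatocytes and round spermatids, was at 101.9 ± 4.57 FPKM (SD, n = 12) and Piwil2 at 38.6 ± 2.56, both above the summed Argonautes at 10.2 ± 0.725. Piwil4 was at 0.218 ± 0.101 FPKM.

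The length behind the FPKM was not the same in every library. It can be read back from the count, the FPKM and the library total. For Ago3 it ran from 8411 to 11282 bases (a ratio of 1.34) and for Ago4 from 5013 to 6004 (1.20), while for the other genes the ratio was at most 1.098. As a result the libraries ranked differently by CPM and FPKM for Ago3. By CPM its highest library was F0_3NC replicate 2 at 18.8, and by FPKM it was F0_5NC replicate 1 at 1.87. Comparisons between groups below are in CPM, and where FPKM gave another direction this is stated.

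The first comparison asked whether the pathway changed when lncRNA5251 was knocked down, F0_5251KD against F0_3NC, both with hairpin vectors. No difference was detected in any of the 10 genes. With edgeR (quasi-likelihood test, Benjamini-Hochberg adjustment over 16296 genes) 0 of 10 passed an adjusted p of 0.05, beside 0.0245% of all genes, and 0 of 10 had an unadjusted p under 0.05, beside 4.74%. DESeq2 and limma on log2(FPKM + 1) also called 0, with 0 at an unadjusted p under 0.05. In 0 of 10 genes did the groups fail to overlap, beside 11.8% of all genes. The median log2 fold change of the 10 was -0.02, and that of all genes tested was 0.00. That median of the 10 became 0.021 without F0_3NC replicate 2 and 0.018 without F0_5251KD replicate 1.

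The largest differences in this comparison were in Tarbp2 and Drosha. The CPM of Tarbp2 was 125.6, 121.4 and 122.3 in F0_5251KD and 119.2, 89.8 and 122.2 in F0_3NC. The groups overlapped and 1 control library was low. The log2 fold change of Tarbp2 was 0.16 (SE 0.12, 95% interval -0.11 to 0.42, edgeR adjusted p = 0.897), and 0.029 without that library, F0_3NC replicate 2. Drosha was at 40.8, 47.4 and 47.0 CPM in F0_5251KD and at 49.1, 47.3 and 50.7 CPM in F0_3NC, with 1 knockdown library below all others. Its log2 fold change was -0.12 (SE 0.078, 95% interval -0.29 to 0.05, edgeR adjusted p = 0.897), and -0.057 without that library, F0_5251KD replicate 1.

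For the remaining genes of the nuclear and export steps, Dgcr8 had a log2 fold change of -0.04 and Xpo5 of -0.02. Dicer1 was at 27.6, 24.4 and 30.2 CPM in F0_5251KD and 27.0, 29.7 and 27.3 in F0_3NC, a log2 fold change of -0.03 (SE 0.11, edgeR adjusted p = 0.964). Prkra had -0.10 (SE 0.14), which ran from -0.167 without F0_5251KD replicate 3 to -0.016 without F0_5251KD replicate 2, with -0.052 without F0_3NC replicate 2, and the 4 Argonautes ran from -0.02 (Ago3) to 0.07 (Ago1). For Ago3 the direction depended on the unit, at -0.02 in counts and 0.05 in limma on log2(FPKM + 1). The widest 95% interval of the 10 reached down to 0.755-fold (Prkra) and up to 1.34-fold (Tarbp2). All 10 intervals thus lay within a 1.5-fold change in either direction, and the narrowest was that of Xpo5, from 0.883-fold to 1.10-fold.

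**Figure D3:**
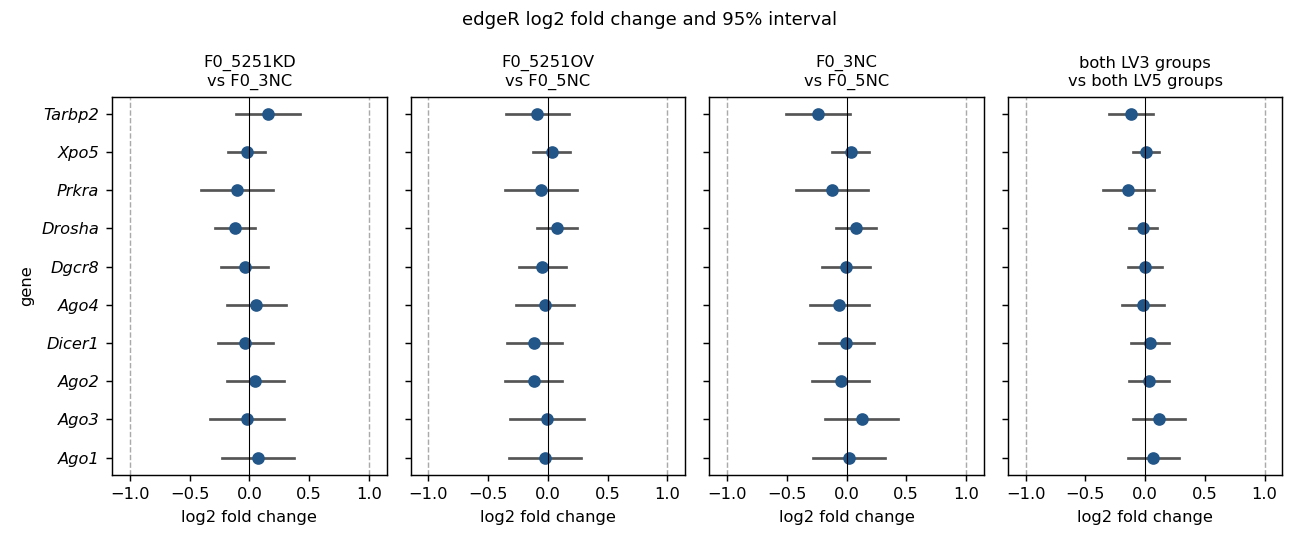
edgeR log2 fold change (point) with its 95% interval (line) for each gene in 4 comparisons; dashed lines mark a 2-fold change in either direction. All 40 intervals cross 0 and stay inside the dashed lines, and the largest estimate is -0.24, for Tarbp2 in F0_3NC against F0_5NC.

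The second comparison, F0_5251OV against F0_5NC, asked the same of overexpression, with vectors that carry no hairpin. Again edgeR called 0 of 10 genes, beside 0.0% of all genes, and 0 of 10 had an unadjusted p under 0.05, beside 8.77%. DESeq2 and limma on log2(FPKM + 1) called 0 of the 10, with 0 at an unadjusted p under 0.05. Of the 10, 8 had a log2 fold change below 0 and 2 above, and the median was -0.04, against 0.00 for all genes. That median of the 10 was -0.099 in limma on log2(FPKM + 1), -0.103 without F0_5251OV replicate 1 and 0.006 without F0_5251OV replicate 2.

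By edgeR on counts, the lowest values here were those of Ago2 and Dicer1. Ago2 was at 17.1, 16.4 and 14.7 CPM in F0_5251OV and at 19.1, 17.8 and 15.5 CPM in F0_5NC, with overlapping groups. Its log2 fold change was -0.12 (SE 0.11, 95% interval -0.36 to 0.12, edgeR adjusted p = 0.753). Dicer1 was at 27.3, 25.2 and 25.1 CPM against 30.7, 24.9 and 28.4 CPM, a log2 fold change of -0.11 (SE 0.11, 95% interval -0.34 to 0.12, edgeR adjusted p = 0.754). Without F0_5NC replicate 1 the values fell to -0.051 for Ago2 and -0.045 for Dicer1, and Ago2 was at -0.060 without F0_5251OV replicate 3. They grew to -0.193 for Ago2 without F0_5NC replicate 3 and to -0.192 for Dicer1 without F0_5NC replicate 2.

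Drosha was the 1 gene of 10 whose groups did not overlap, beside 13.9% of all genes. It was at 48.7, 47.7 and 50.2 CPM in F0_5251OV and at 45.3, 46.0 and 47.6 CPM in F0_5NC, and the gap between the groups was smaller than the spread within either. Its log2 fold change was 0.08 (SE 0.078, 95% interval -0.09 to 0.24, edgeR adjusted p = 0.773). By edgeR on counts, the remaining 7 genes lay between -0.09 (Tarbp2) and 0.03 (Xpo5) on the log2 scale. All 10 edgeR intervals stayed between 0.781-fold and 1.23-fold. The size for Ago3 depended on the unit, at -0.006 in counts. It was -0.175 (SE 0.096, limma adjusted p = 0.651) on log2(FPKM + 1). On log2(FPKM + 0.1) it was -0.275 (SE 0.157, limma adjusted p = 0.655).

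The next comparisons set vectors with a hairpin against vectors without. The backbone, the hairpin and anything else that was shared by the groups of one backbone cannot be told apart here. Between the control groups, F0_3NC against F0_5NC, edgeR called 0 of 10 genes, beside 0.331% of all genes, and 0 of 10 had an unadjusted p under 0.05, beside 11.9%. DESeq2 called 0 with 0 at an unadjusted p under 0.05, and limma on log2(FPKM + 1) called 0 with 1 at an unadjusted p under 0.05, which was Tarbp2. The median log2 fold change of the 10 was 0.00, and that of all genes was 0.00. That median of the 10 was -0.05 in limma on log2(FPKM + 1) and -0.042 without F0_3NC replicate 2.

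Tarbp2 had the largest difference of the whole set in this comparison. It was at 119.2, 89.8 and 122.2 CPM in F0_3NC and at 124.9, 140.9 and 125.4 CPM in F0_5NC. The groups did not overlap, which held for this 1 gene of the 10 and for 17.0% of all genes. The log2 fold change of Tarbp2 was -0.24 (SE 0.12, 95% interval -0.51 to 0.03, unadjusted p = 0.0723, edgeR adjusted p = 0.453), and so it did not pass the test. Without F0_3NC replicate 2 the log2 fold change was -0.11 (edgeR adjusted p = 0.847), so the value moved by over 1.5 times with that 1 library.

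That library and F0_5251OV replicate 1 were the lowest of the 12 in Tarbp2, at 89.8 and 101.2 CPM, while the other 10 libraries were between 119.2 and 140.9 CPM. The same 2 libraries had the highest sums of the 7 spermatocyte markers, at 1209 and 1187 CPM, while the others were between 820.6 and 933.2 CPM. They had the lowest sums of the 10 Sertoli markers, at 684.0 and 711.7 CPM, while the others were between 836.4 and 1355 CPM. Their sums over the 7 round spermatid markers were 1339 and 1346 CPM, ranks 11 and 10 of 12 from the highest, and over the 6 elongated spermatid markers 14021 and 15091 CPM, ranks 12 and 10. F0_5NC replicate 1 had 14740 CPM of these markers and 124.9 CPM of Tarbp2. The part of cell makeup in the level of Tarbp2 was not tested. The 3 genes whose pattern over the 12 libraries was nearest to that of Tarbp2, by root mean square difference of centred log2 CPM, were Rab1b (0.0333), Smg9 (0.0374) and Drg2 (0.0379). The median distance of all genes tested was 0.257, and the own spread of Tarbp2 on this scale was 0.171.

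**Figure D4:**
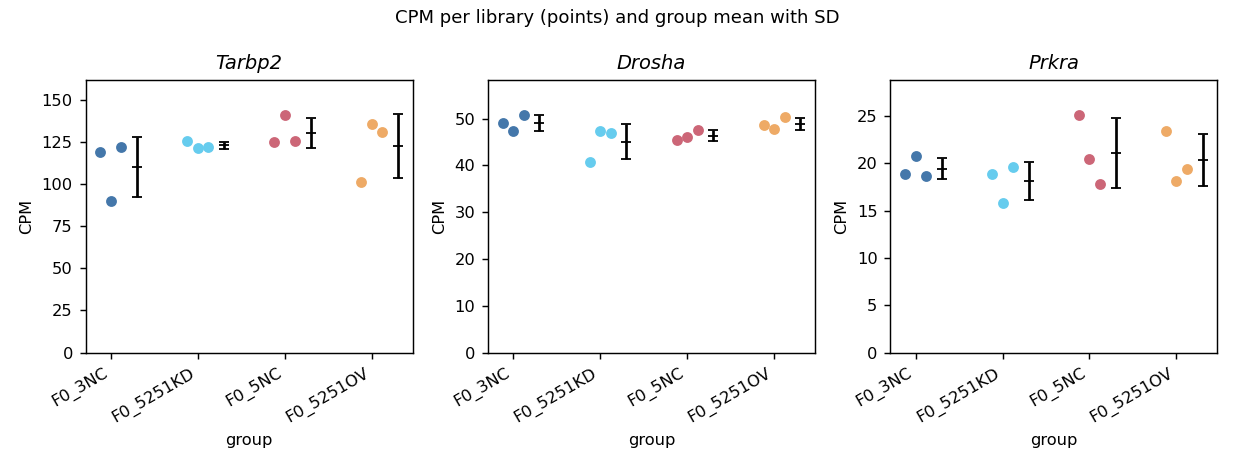
CPM of Tarbp2, Drosha and Prkra in each library (points) with the group mean and SD beside them (n = 3); axes start at 0. Tarbp2 is low in 1 library of F0_3NC (89.8) and 1 of F0_5251OV (101.2), Drosha is low in 1 library of F0_5251KD (40.8), and Prkra is high in 1 library of F0_5NC (25.1) and 1 of F0_5251OV (23.4).

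With the groups of each backbone combined, F0_3NC and F0_5251KD against F0_5NC and F0_5251OV, 0 of 10 genes were called by edgeR, beside 0.706% of all genes, and 0 of 10 had an unadjusted p under 0.05, beside 6.35%. DESeq2 and limma on log2(FPKM + 1) called 0, with 0 at an unadjusted p under 0.05. Xpo5, which encodes the exporter that hairpins from vectors share with precursors of microRNAs, had a log2 fold change of 0.01 (SE 0.051, 95% interval -0.10 to 0.12). Its CPM was between 67.6 and 75.5 over all 12 libraries. Dicer1 had 0.04 (95% interval -0.12 to 0.20) and Ago2, the Argonaute that cuts matched targets, had 0.04 (95% interval -0.13 to 0.20). The lowest value was that of Prkra at -0.14 (SE 0.099, 95% interval -0.36 to 0.07, edgeR adjusted p = 0.929) and the highest that of Ago3 at 0.12 (SE 0.10, 95% interval -0.10 to 0.34, edgeR adjusted p = 0.952). With the LV3 backbone, Prkra was at 18.9, 20.8 and 18.7 CPM in F0_3NC and at 18.9, 15.8 and 19.7 CPM in F0_5251KD. With the LV5 backbone it was at 25.1, 20.5 and 17.8 CPM in F0_5NC and at 23.4, 18.2 and 19.4 CPM in F0_5251OV. Its groups overlapped throughout. The combined value of Prkra was -0.069 without F0_5NC replicate 1 and -0.085 without F0_5251OV replicate 1. That of Ago3 was 0.047 without F0_3NC replicate 2, 0.073 without F0_5NC replicate 2 and 0.077 without F0_5251OV replicate 2. Tarbp2 had -0.118 (95% interval -0.31 to 0.07, edgeR adjusted p = 0.938). Its value was -0.054 without F0_3NC replicate 2, -0.078 without F0_5251OV replicate 2 and -0.179 without F0_5251OV replicate 1.

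Whether the effect of knockdown differed from that of overexpression was tested as a difference of effects in the same fit. By edgeR 0 of 10 genes passed, beside 0.0% of all genes, and 0 of 10 had an unadjusted p under 0.05, beside 11.3%, while DESeq2 and limma on log2(FPKM + 1) called 0, with 0 at an unadjusted p under 0.05. The largest values were 0.25 for Tarbp2 (SE 0.17, 95% interval -0.13 to 0.62, edgeR adjusted p = 0.574) and -0.20 for Drosha (SE 0.11, 95% interval -0.44 to 0.04, edgeR adjusted p = 0.482). Of the 10 intervals, 9 lay within a 1.5-fold difference, and that of Tarbp2 reached 1.54-fold.

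The genes differed in how much they varied over the 12 libraries, a spread that includes any differences between groups. Xpo5 was the steadiest, with a coefficient of variation of 4.12% in CPM and a ratio of highest to lowest library of 1.12. Only 2.0% of the 7530 genes with a mean between 10.4 and 121.7 CPM, the range of these 10, had a lower one. This set was not matched to the level of each gene, and counting error is larger at lower counts. Drosha followed with 5.44% (7.4% of genes lower) and Dgcr8 with 6.15% (12.4% lower). At the other end, Prkra had 12.6% (69.8% of genes lower), Ago3 11.7% and Tarbp2 11.5%. The median over the 10 was 8.03%, and over all genes of that range 10.1%. Part of this spread is counting error, which the mean estimated count alone puts at 2.99% for Xpo5 (1118 counts), 5.67% for Prkra (310.8 counts) and 6.48% for Ago3 (238.1 counts). For Ago1, with the fewest counts (163.2), counting error comes to 7.83% beside an observed 10.1%. For Tarbp2, with 1905 counts, it comes to 2.29% beside an observed 11.5%. Among the libraries, F0_3NC replicate 2 and F0_5NC replicate 1 each held the highest CPM of 3 of the 10 genes.

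The wider pathway was read from 6 lists with 59 genes in all, each of which was in the table and passed the filter on low counts. In each of the 5 comparisons edgeR called 0 genes of any list, in either direction. Among the 7 partners of the Microprocessor, Ddx5, an RNA helicase, had the smallest p. It was at 1423 ± 159.3 CPM in F0_3NC and 1233 ± 54.8 in F0_5NC (SD, n = 3), a log2 fold change of 0.21 (edgeR adjusted p = 0.428). The list's medians were -0.04 in F0_5251KD against F0_3NC, 0.02 in F0_5251OV against F0_5NC and 0.04 in F0_3NC against F0_5NC. Among the 10 genes of precursor export, tailing and decay, Dis3l2, a nuclease that degrades tailed precursors, was at 47.4 ± 2.73 CPM in F0_5251OV and 41.5 ± 3.69 in F0_5NC, a log2 fold change of 0.19 (edgeR adjusted p = 0.568). The medians of this list were -0.11, 0.08 and 0.14 in the same order of comparisons, each beside 0.00 for all genes.

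Among the 12 genes of Argonaute loading and turnover, Ppp6c, a phosphatase subunit that acts on AGO2, was at 54.2 ± 4.95 CPM in F0_3NC and 47.2 ± 1.86 in F0_5NC (SD, n = 3), a log2 fold change of 0.20 (edgeR adjusted p = 0.405). Among the 16 silencing effectors, Tnrc6c, a GW182 protein that links Argonautes to deadenylases, was at 77.4 ± 4.21 CPM in F0_5251OV and 86.8 ± 2.60 in F0_5NC, a log2 fold change of -0.17 (edgeR adjusted p = 0.552). The medians of these 2 lists stayed between -0.05 and 0.02 in the 3 comparisons of pairs of groups. Single genes of the loading list spread wider, from -0.52 to 0.17 in F0_5251OV against F0_5NC. They ran from -0.42 to 0.21 in F0_3NC against F0_5NC and from -0.19 to 0.20 in F0_5251KD against F0_3NC. For both LV3 against both LV5 groups, the lowest edgeR adjusted p of the loading list was 0.185. In the PIWI clade the smallest p was that of Piwil4, at 0.493 ± 0.249 CPM in F0_5251KD and 0.775 ± 0.384 in F0_3NC, a log2 fold change of -0.66 with an SE of 0.48 (edgeR adjusted p = 0.897), at a level too low to give a narrow interval.

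Among the 11 other double-stranded RNA-binding proteins, Adar, the enzyme that edits adenosine in double-stranded RNA, had the smallest unadjusted p of the wider pathway in the 3 comparisons of pairs of groups. It was at 12.5 ± 0.418 CPM in F0_5251OV and 15.2 ± 0.846 in F0_5NC (SD, n = 3), a log2 fold change of -0.29 (SE 0.098, unadjusted p = 0.0116, edgeR adjusted p = 0.536). In F0_5251KD against F0_3NC its log2 fold change was 0.00 (edgeR adjusted p = 0.999). The list's medians were -0.05, 0.01 and 0.02 in the same order of comparisons as above.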

How the data were processed

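Testis RNA of 12 libraries in 4 groups of 3 was measured by RNA-seq. After enrichment of mRNA on oligo(dT) beads and random-hexamer priming, the authors sequenced the libraries on an Illumina HiSeq and mapped reads to reference genes with SOAPaligner. Per the labels the build was mm10. The estimating tool is not given in the sources used. A single deposited table held, for each gene and library, the estimated count and the FPKM (called RPKM in the methods). Some 12.0% of these counts were not whole numbers (tolerance 1e-06). A further 18 columns match none of these 12 samples and were not used.

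Groups were taken from the labels. The members and all lists were chosen with earlier results of these data known. The rule for named genes was all 10 members, genes of the pathway lists that passed the test, the gene with the smallest unadjusted p of each list in the pairwise comparisons, and the 3 genes nearest in pattern to the member with the largest range of group means. Purb, and Piwil1 and Piwil2 as the rest of a list, were named in addition after their values were seen. No row of a microRNA host gene (Mir...hg) was found (0 rows).

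Counts were rounded and tested with edgeR 4.0.16 under R 4.3.3, by a two-sided quasi-likelihood F test in 1 fit of 4 groups (8 residual degrees of freedom), after filterByExpr and TMM scaling. The filter kept 16296 genes, with all 10 members. P-values were adjusted by Benjamini-Hochberg over these genes at a threshold of 0.05. The standard error and 95% interval come from the same fit. TMM factors lay between 0.970 and 1.08, and CPM uses them. Members had 131 to 2134 estimated counts per library, and their mean counts put counting error between 2.29% and 7.83%, which covers counting only. The lowest chi-square per gene between libraries of a group was 3.73, so no pair agreed within sampling noise.

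Alternatives were DESeq2 1.42.0, limma 3.58.1 on log2(FPKM + 1) and log2(FPKM + 0.1), upper-quartile scaling, 2 other filters, a fit of only the compared groups, a replicate block, omission of each library in turn, and a test of pooled counts after the study's methods. The scripts were tested on simulated data. Sequences came from the study's list of shRNAs, GENCODE M21 and RefSeq.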

Additional observations from a re-analysis of the deposited data

How the results depend on the processing

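In each of the 5 comparisons, 0 of 10 members were called under every alternative run. The pooled-count test, which also required at least a 2-fold change, called 0 of 10 in the knockdown and overexpression comparisons. It could call none whatever their p, since the largest absolute log2 fold change of a member was 0.18 for knockdown and 0.17 for overexpression. Over 610 values of single members under alternatives, 0 passed the threshold, the lowest edgeR, DESeq2 or limma adjusted p was 0.356, and 5 had an unadjusted p under 0.05, each of them for Tarbp2. Near 0, directions were not stable. Leaving out 1 library turned the sign of 56 of 300 values (read at 3 decimals) and the other alternatives of 15 of 310, and the largest value before turning was 0.13. Under limma on log2(FPKM + 1) and log2(FPKM + 0.1), the log2 fold change of Ago3 became 0.052 and 0.080 and that of Ago4 -0.006 and -0.007 in F0_5251KD against F0_3NC. That of Xpo5 became -0.014 and -0.015 in F0_5251OV against F0_5NC, and in F0_3NC against F0_5NC those of Ago1 became -0.009 and -0.017, of Ago3 -0.077 and -0.118, of Xpo5 -0.001 and -0.002 and of Dicer1 0.004 and 0.007, with 0.005 for Dicer1 under the replicate block.

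Leaving out 1 library gave these ranges of log2 fold change where a direction turned. In F0_5251KD against F0_3NC they were -0.007 to 0.176 for Ago1, -0.016 to 0.123 for Ago2, -0.132 to 0.124 for Ago3, -0.035 to 0.113 for Ago4, -0.121 to 0.029 for Dgcr8, -0.111 to 0.042 for Dicer1 and -0.066 to 0.012 for Xpo5. In F0_5251OV against F0_5NC they were -0.109 to 0.086 for Ago1, -0.116 to 0.079 for Ago3, -0.101 to 0.063 for Ago4, -0.115 to 0.011 for Dgcr8, -0.171 to 0.086 for Prkra and -0.167 to 0.034 for Tarbp2. In F0_3NC against F0_5NC they were -0.078 to 0.102 for Ago1, -0.125 to 0.019 for Ago2, -0.014 to 0.242 for Ago3, -0.137 to 0.032 for Ago4, -0.024 to 0.010 for Dgcr8, -0.079 to 0.065 for Dicer1 and -0.222 to 0.020 for Prkra. For both LV3 against both LV5 groups they were -0.004 to 0.071 for Ago2, -0.058 to 0.027 for Ago4, -0.040 to 0.035 for Dgcr8, -0.035 to 0.017 for Drosha and -0.010 to 0.030 for Xpo5.

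Counts of all genes called moved more. The pooled-count test followed the study's own cutoffs, a stricter adjusted p together with a minimum fold change. The other counts used the common threshold with no fold cutoff, so the pooled counts are not like for like with them. In F0_5251KD against F0_3NC edgeR called 4, DESeq2 20, limma 2 and 0 with the pseudocounts 1 and 0.1, the replicate block 2, the pooled-count test 143, and leaving out 1 library 0 to 4 (1 without F0_5251KD replicate 1, and 0 without the third library of that group or the first or the third of F0_3NC). In F0_5251OV against F0_5NC edgeR called 0, DESeq2 30, no filter 3, the compared groups alone 3, the pooled-count test 191, and leaving out 1 library 0 to 1 (1 without F0_5NC replicate 2 or 3). In F0_3NC against F0_5NC edgeR called 54, DESeq2 138, and leaving out 1 library 30 to 54 (35 without F0_3NC replicate 2 and 30 without F0_5NC replicate 3). For both LV3 against both LV5 groups edgeR called 115 and limma 73 and 74 with the 2 pseudocounts. The cause of these shifts was not tested. The replicate numbers were not found to pair the libraries, since same-numbered libraries had correlations of -0.20 to 0.13, and the block changed no call of a member. A fit of the compared groups alone was not made for the LV3 against LV5 average and the difference of effects, which use all 4 groups.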
